A study of Mus musculus with 12 samples.

Results

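The genes for chemokines and chemokine receptors were followed in liver RNA of healthy mice, of mice with steatohepatitis and of such mice given a bromodomain inhibitor. Members were taken by gene symbol (Ccl, Cxcl, Ccr, Cxcr or Ackr followed by a number, and Cx3cl1, Cx3cr1 and Xcl1) among protein-coding genes of GENCODE M21, matched by Ensembl identifier. The rule found 66 of the 47729 genes in the count tables, 44 of them ligands and 22 receptors. All 12 mice were C57BL/6 and, by the study's methods, 9 weeks old at collection, with 4 mice in each of 3 groups. The healthy group was wild type, stayed on normal diet and received vehicle. The STAM vehicle group, of male mice, had received streptozotocin, which destroys insulin-producing islet cells, at 2 days of age and a high fat diet from week 4, and was then dosed orally with methylcellulose vehicle from week 6 to week 9. The STAM I-BET151 group had the same streptozotocin and diet and received I-BET151 at 10 mg/kg once a day over the same weeks. I-BET151 was suspended in hydroxypropyl methylcellulose with Tween 80, so the compound and its suspending agent cannot be told apart from the vehicle group's methylcellulose. Diabetes from streptozotocin and the diet came together in both STAM groups, and their parts cannot be told apart either.

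Chemokines are small secreted proteins that guide the movement of leukocytes through G protein-coupled receptors, and the families (CC, CXC, CX3C and XC) are named after the spacing of conserved cysteines. In injured liver, CCL2 draws monocytes that carry CCR2, CXCL1 and CXCL2 draw neutrophils through CXCR2, and CXCL9 and CXCL10, made in response to interferon, draw T cells and NK cells that carry CXCR3. Atypical receptors bind chemokines without the usual G protein signal and remove them. I-BET151 blocks the bromodomains with which BET proteins bind acetylated histones.

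Total counts were between 34711229 and 53365596 per mouse, and 1 library stood apart. I-BET151 mouse 3 had a TMM scaling factor of 1.61, against 0.770 to 1.11 in the other 11 mice, and its summed hepatocyte markers (Alb, Apoa1, Ttr, Cps1, Serpina1a and Fgb) reached 20028 counts per 1e6 counts (CPM), against at least 53865 CPM in every healthy and STAM vehicle mouse. Values below are CPM of the TMM-scaled library unless stated, and differences are log2 fold changes with their standard error (SE). Because whole liver was sequenced, more cells of a type and more RNA per cell cannot be told apart.

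Of the 66 members, 43 had enough counts to be tested (27 ligands and 16 receptors). The other 23 reached at most 43 counts in any mouse. Per kilobase of exon, the most abundant member was Cxcl12, the CXCR4 ligand that retains leukocytes and progenitors in tissues, at 50.1 ± 5.43 CPM per kb in healthy liver (SD, n = 4 mice here and below). Ccl9 and Ccl6, myeloid chemokines of rodents, followed at 9.25 ± 1.27 and 5.19 ± 1.62 CPM per kb. Among the receptors reported, healthy levels ran from 0.0155 ± 0.00464 CPM per kb for Ccr3 to 0.587 ± 0.359 for Cxcr4, except for the atypical receptor Ackr2 at 2.07 ± 0.590, within the spread of the ligands Cxcl9 (1.53 ± 0.447) and Cxcl1 (1.70 ± 0.566). Cxcl12 led in all 3 groups, while Ccl9 and Ccl6 did not differ beyond their spread in STAM vehicle (11.2 ± 1.12 and 9.54 ± 3.28) or I-BET151 liver (11.6 ± 5.43 and 11.7 ± 7.59).

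**Figure D1:**
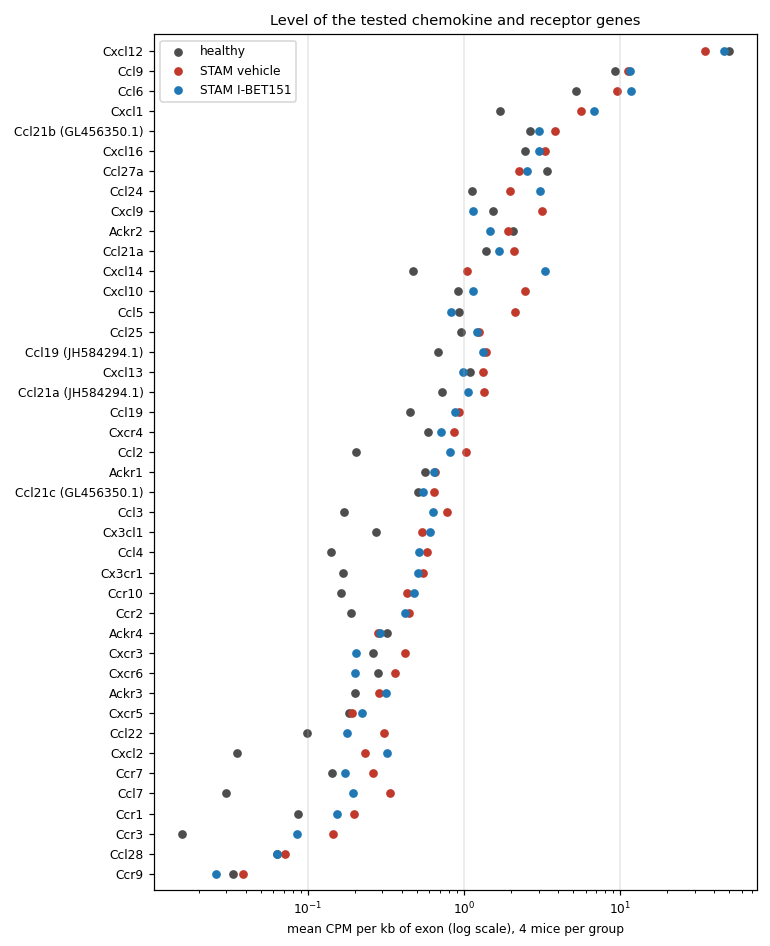
Mean level of tested chemokine and receptor genes in CPM per kilobase of exon (log axis), 1 point per group of 4 mice: healthy grey, STAM vehicle red, STAM I-BET151 blue. Cxcl12 lies above all others, healthy Ccr3 is the lowest point at 0.0155, and for most genes the grey point lies left of the red one.

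Chemokine genes were mostly higher in STAM vehicle liver than in healthy liver. Each comparison was taken from 1 edgeR quasi-likelihood fit of all 12 mice, with p adjusted after Benjamini and Hochberg over 16823 genes. At an adjusted p of at most 0.05, 10 of the 43 tested members rose and none fell, whereas 5.72% of all genes tested rose, 1.38% fell and 7.1% changed in either direction. They included Ccl2, Ccl4, Ccl5, Ccl7, Cxcl2, Cxcl9, Cxcl10, Ccr3 and Cx3cr1. Of the 43, 39 had a positive log2 fold change (50.9% of all genes) and 4 a negative one (49.1%), with a median of 0.85 against 0.0089 over all genes. In 16 members every STAM vehicle mouse was above every healthy mouse (14.2% of all genes), and in 2 members, Cxcl12 and Ccl27a, every STAM vehicle mouse was below (12.2% of all genes). The median stayed between 0.67 and 1.13 when any 1 mouse was left out, but the number of members called ranged from 4 to 16. It was 4 without healthy mouse 3 (546 of 17243 genes) or without STAM vehicle mouse 3 (546 of 17008 genes). It was 16 without I-BET151 mouse 3, which enters the shared estimate of the spread (3779 of 16967 genes). Of those 16, Cxcl12 and Ccl27a were called lower. With sequencing lane as a covariate, which left few residual degrees of freedom, no member was called in any of the 3 comparisons (37, 0 and 85 of all genes). The median of the members in STAM vehicle against healthy was then 0.26, beside 0.032 over all genes. Lane 2 alone held a mouse of both these groups. There 29 of 43 members were higher in the STAM vehicle mouse and 14 lower, with a median log2 difference of 0.32.

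Under I-BET151 far fewer members passed the test against STAM vehicle. At an adjusted p of at most 0.1, 1 of 43 members changed, the T cell attractant Cxcl9, which fell. Of all genes, 0.351% changed, 0.256% fell and 0.0951% rose. Without I-BET151 mouse 3, 4 of 44 members were called, beside 403 of 16967 genes. Those were Cxcl9, Cxcl10 and Ccl5, which fell, and Cxcl14, which rose. Without STAM vehicle mouse 4, 0 members were called, beside 13 of 17064 genes. Of the 43, 30 had a negative log2 fold change (46.1% of all genes) and 13 a positive one (53.9%), with a median of −0.15 against 0.024 over all genes; without STAM vehicle mouse 3 that median was 0.001. In the 3 sequencing lanes that held 1 mouse of each STAM group, the I-BET151 mouse was lower for 33 of 43 members in lane 2, 16 in lane 6 and 27 in lane 7, so that in lane 6 most members, 27, were higher. In 5 members, Cxcl9, Cxcl10, Ccl5, Cxcr3 and Cxcr6, every I-BET151 mouse lay below every STAM vehicle mouse (2.63% of all genes), and no member showed the opposite separation (2.41% of all genes).

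Against healthy liver, 9 of 43 members were higher under I-BET151 and none lower (adjusted p of at most 0.05, edgeR), beside 9.88% of all genes called higher, 5.25% called lower and 15.1% called in either direction. They included Ccl2, Ccl4, Ccl7, Cxcl1, Cxcl2, Cxcl14, Ccr3 and Cx3cr1. Of the 43, 33 had a positive log2 fold change (55% of all genes) and 10 a negative one (45%), with a median of 0.34 against 0.061 over all genes. In 9 members every I-BET151 mouse was above every healthy mouse (10.9% of all genes) and in none was every mouse below (8.85%). With lane as a covariate the median of the members was −0.019, beside 0.0035 over all genes. Lanes 2 and 5 each held a healthy and an I-BET151 mouse. There 17 and 22 of 43 members were higher in the I-BET151 mouse, and 26 and 21 lower. The median log2 differences were −0.23 and 0.040. A log2 fold change of at least 1 was reached by 18 members in STAM vehicle against healthy (7.63% of all genes), by 1 in I-BET151 against STAM vehicle (1.07%) and by 15 in I-BET151 against healthy (9.4%). This comparison shares its mice with the other comparisons, so the 3 are given side by side below. Leaving out 1 mouse moved the number called between 4 and 14. It was 4 without healthy mouse 2 (1329 of 17219 genes). It was 14 without I-BET151 mouse 2 (3731 of 17178 genes) or mouse 3 (3464 of 16967 genes). Without mouse 3, Ackr4 and Ccl27a were among the 14 as called lower.

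**Figure D2:**
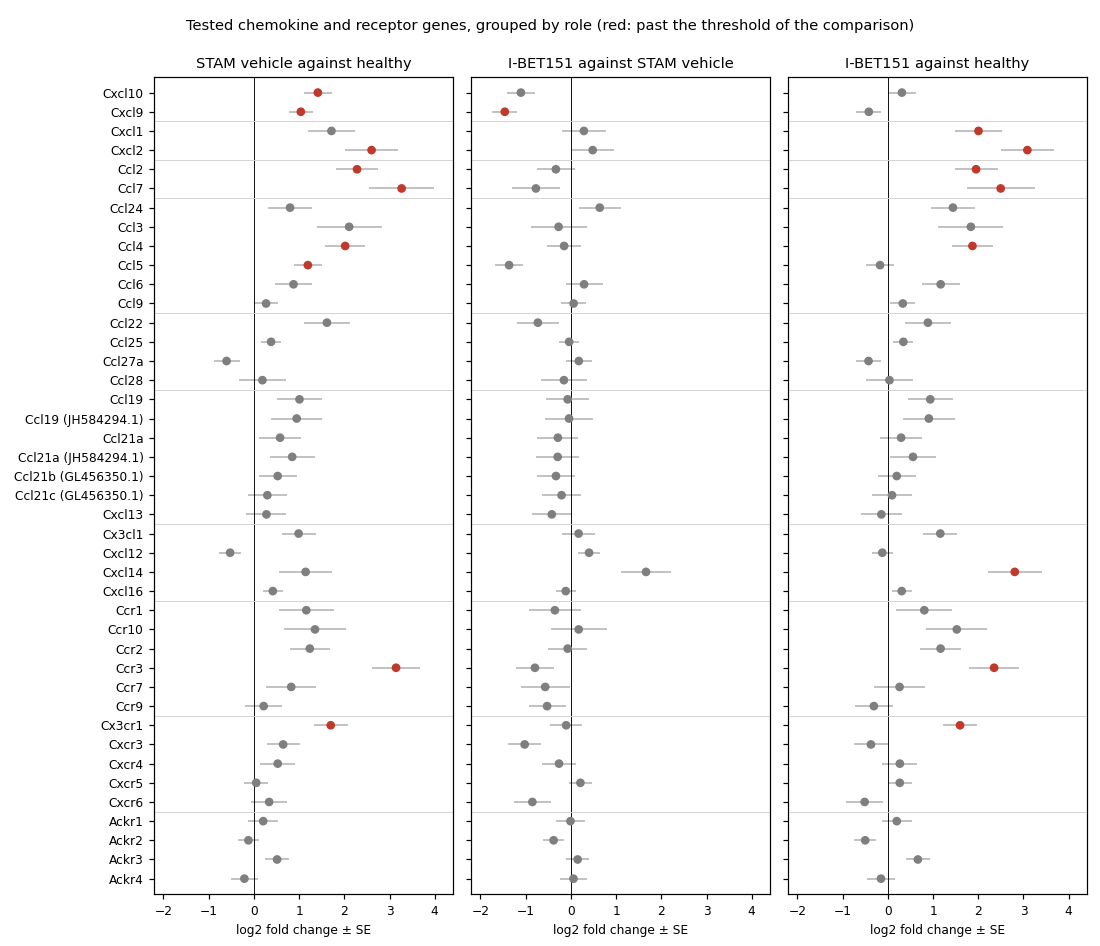
Log2 fold change ± SE of tested members in the 3 comparisons, grouped by role from CXCR3 ligands at the top to atypical receptors at the bottom; red marks adjusted p values past the threshold. Red points lie right of 0 in both comparisons with healthy liver, and Cxcl9 is the single red point, left of 0, in the comparison of I-BET151 with STAM vehicle.

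The interferon-inducible CXCR3 ligands Cxcl9 and Cxcl10 rose in STAM vehicle liver, and Cxcl9 fell under I-BET151. Cxcl9 lies on chromosome 5 (92321347 to 92328079, minus strand, GRCm38). It had 3.36, 4.56, 6.51 and 4.08 CPM in healthy mice 1 to 4. STAM vehicle mice had 7.60, 9.01, 11.6 and 9.80 CPM, and I-BET151 mice 4.00, 4.82, 3.17 and 1.84 CPM. Every STAM vehicle mouse was above all mice of both other groups, while the healthy and I-BET151 mice overlapped. Cxcl9 rose 2.06-fold from healthy to STAM vehicle (log2 fold change 1.04, SE 0.27, edgeR adjusted p = 0.0352), a call that held in 6 of 12 fits without 1 mouse (adjusted p between 0.0161 and 0.117) and was lost without healthy mouse 1, 2 or 4 or STAM vehicle mouse 2, 3 or 4. It fell under I-BET151, being 2.75-fold lower than in STAM vehicle (log2 fold change −1.46, SE 0.27, edgeR adjusted p = 0.0528), and against healthy liver it differed by −0.42 (SE 0.27, adjusted p = 0.302). The fall under I-BET151 missed the threshold in 5 of the 12 fits that left out 1 mouse (STAM vehicle mouse 2, 3 or 4, or I-BET151 mouse 1 or 4), with the log2 fold change between −1.66 and −1.25 and the adjusted p between 0.0396 and 0.171. Sequencing lanes, read from the names of the deposited tables, were shared by a STAM vehicle and an I-BET151 mouse 3 times; within them Cxcl9 went from 9.80 to 1.84 CPM in lane 2, from 7.60 to 4.00 in lane 6 and from 11.6 to 3.17 in lane 7.

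Cxcl10 lies next to Cxcl9 (chromosome 5, 92346638 to 92348889, minus strand). Healthy mice had 2.66, 2.12, 1.89 and 1.58 CPM, STAM vehicle mice 4.45, 5.50, 5.73 and 6.41, and I-BET151 mice 2.86, 2.71, 3.68 and 0.988. Again no STAM vehicle mouse overlapped with either other group, and I-BET151 mouse 4 was the lowest of all 12. Cxcl10 rose 2.67-fold in STAM vehicle (log2 fold change 1.42, SE 0.31, edgeR adjusted p = 0.0157, lost without healthy mouse 3 or 4). The difference under I-BET151 was −1.10 (SE 0.31) and did not pass the test (edgeR adjusted p = 0.238), although it did without I-BET151 mouse 3 (−1.33, adjusted p = 0.0641) and with DESeq2 on all mice (−1.13, adjusted p = 0.0257). In lanes 2, 6 and 7 the I-BET151 mouse was below the STAM vehicle mouse each time (0.988 against 6.41, 2.86 against 4.45 and 3.68 against 5.73 CPM). A part of the Cxcl10 exons, 5.91%, overlaps Art3 on the opposite strand.

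Ccl5, a ligand of CCR1 and CCR3 made by T cells, NK cells and macrophages, showed the same arrangement (chromosome 11, 83525778 to 83530518, minus strand). It had 1.13, 0.583, 0.988 and 0.863 CPM in healthy mice, 1.51, 1.47, 2.63 and 2.57 in STAM vehicle mice, and 1.15, 0.753, 0.520 and 0.735 in I-BET151 mice. All STAM vehicle mice were above the other 8. It rose 2.29-fold in STAM vehicle (log2 fold change 1.19, SE 0.31, edgeR adjusted p = 0.0348), a call lost without healthy mouse 2, 3 or 4 or STAM vehicle mouse 3 or 4. Under I-BET151 the difference was −1.37 (SE 0.31, edgeR adjusted p = 0.135), past the threshold without I-BET151 mouse 3 (−1.19, adjusted p = 0.0897) and with DESeq2 (−1.38, adjusted p = 0.00586). Within lanes 2, 6 and 7 it went from 2.57 to 0.735, from 1.51 to 1.15 and from 2.63 to 0.520 CPM.

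Cxcr3, the receptor for CXCL9 and CXCL10, was measured at 0.809, 0.371, 0.203 and 0.431 CPM in healthy mice, 0.529, 0.629, 0.967 and 0.764 in STAM vehicle mice, and 0.414, 0.271, 0.377 and 0.345 in I-BET151 mice. Healthy mouse 1 was within the range of the STAM vehicle mice, and the I-BET151 mice were all below them. Neither the difference of 0.65 (SE 0.37) between STAM vehicle and healthy nor that of −1.02 (SE 0.37) under I-BET151 passed the test (edgeR adjusted p = 0.324 and 0.417). Cxcr6, the receptor for CXCL16 on resident T cells and NK T cells, had 0.958, 0.265, 0.262 and 0.690 CPM in healthy mice, 0.505, 0.724, 0.890 and 0.658 in STAM vehicle mice, and 0.270, 0.392, 0.466 and 0.414 in I-BET151 mice. The last 2 groups did not overlap, yet the difference of −0.85 (SE 0.40) gave an edgeR adjusted p of 0.586.

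T cell markers moved in the same directions. The summed level of 10 markers (Cd3d, Cd3e, Cd3g, Cd2, Cd5, Cd4, Cd8a, Cd8b1, Lck and Themis) was 3.22 to 7.13 CPM in healthy, 9.56 to 17.2 in STAM vehicle and 6.62 to 8.95 in I-BET151 mice. All 10 were higher in STAM vehicle than in healthy liver (50.9% of all genes), 4 of them past the test (5.72% of all genes). All 10 were lower under I-BET151 than in STAM vehicle (46.1% of all genes), 1 past the test (0.256% of all genes). The 7 NK cell markers summed to 1.05 to 1.34, 1.61 to 2.51 and 0.874 to 1.78 CPM. All 4 tested were higher in STAM vehicle, 1 of them called, and all 4 were lower under I-BET151, none called. The part of either cell type in the values of Cxcl9, Cxcl10, Ccl5, Cxcr3 and Cxcr6 was not tested.

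**Figure D3:**
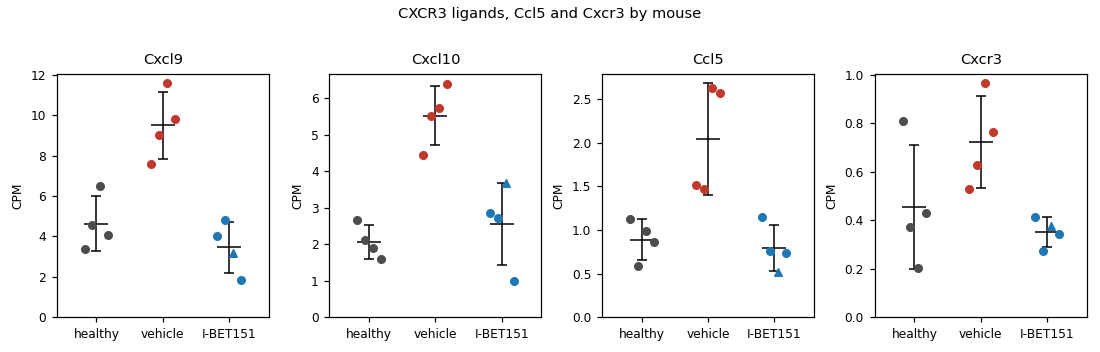
CPM of Cxcl9, Cxcl10, Ccl5 and Cxcr3 in each of the 12 mice (points), with group mean and SD (bars, n = 4); the triangle is I-BET151 mouse 3. All 4 red STAM vehicle points of Cxcl9, from 7.60 to 11.6 CPM, lie above every other point, and the same holds for Cxcl10 and Ccl5 but not for Cxcr3.

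The monocyte attractants followed another course, higher in both STAM groups. Ccl2, the main CCR2 ligand (chromosome 11, 82035571 to 82037453, plus strand), had 0.447, 0.159, 0.262 and 0.0575 CPM in healthy mice. STAM vehicle mice had 0.793, 1.16, 1.62 and 1.08 CPM, and I-BET151 mice 1.28, 0.572, 1.20 and 0.620. The healthy mice lay below all 8 STAM mice, whose groups overlapped. Ccl2 rose 4.86-fold in STAM vehicle (log2 fold change 2.28, SE 0.47, edgeR adjusted p = 0.0116) and was 3.87-fold above healthy under I-BET151 (1.95, SE 0.47, adjusted p = 0.0160; it missed the threshold without healthy mouse 2). Between the STAM groups the difference was −0.33 (SE 0.42, edgeR adjusted p = 0.890). Ccl7, a ligand of CCR1, CCR2 and CCR3 that lies beside Ccl2, had 2, 2, 0 and 0 counts in healthy mice, 4, 14, 14 and 21 in STAM vehicle mice and 10, 6, 11 and 3 in I-BET151 mice. Its log2 fold changes against healthy, 3.27 (SE 0.71, adjusted p = 0.0151) in STAM vehicle and 2.5 (SE 0.75, adjusted p = 0.0402) under I-BET151 by edgeR, passed the test, but healthy mice held at most 2 counts, so their size depends on the prior count of the fit. The call in STAM vehicle was lost without healthy mouse 3, and the call under I-BET151 in 8 of 12 fits without 1 mouse (each healthy mouse, STAM vehicle mouse 2 or 3, I-BET151 mouse 1 or 3). Of the remaining CCR2 ligands, Ccl8 reached 8 counts and Ccl12 5 counts in any mouse, and neither was tested.

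Ccr2, the receptor of CCL2 and CCL7 on monocytes, had 1.60, 1.43, 0.640 and 1.41 CPM in healthy mice, 1.85, 2.78, 4.66 and 2.72 in STAM vehicle mice, and 3.51, 0.723, 3.98 and 3.15 in I-BET151 mice. The STAM vehicle mice did not overlap with the healthy mice, and I-BET151 mouse 2 was at the healthy level. The difference of 1.24 (SE 0.44) in STAM vehicle did not pass the test (edgeR adjusted p = 0.112), but it passed without I-BET151 mouse 2, with only the 2 groups compared, with DESeq2 and with limma-voom. Under I-BET151 against healthy the difference of 1.17 (SE 0.44) did not pass either (edgeR adjusted p = 0.0892).

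Cx3cr1, the fractalkine receptor of monocytes and tissue macrophages, had 1.02, 0.609, 0.407 and 0.978 CPM in healthy mice, 1.39, 2.11, 3.81 and 2.55 in STAM vehicle mice, and 2.85, 1.27, 3.03 and 2.0 in I-BET151 mice. Healthy mice were again the lowest 4. It rose 3.25-fold in STAM vehicle (log2 fold change 1.70, SE 0.38, edgeR adjusted p = 0.0166) and was 3.02-fold above healthy under I-BET151 (1.60, SE 0.38, adjusted p = 0.0144), with a difference of −0.10 (SE 0.35) between the STAM groups. Without healthy mouse 2 both calls were lost, and the first also without healthy mouse 3 or STAM vehicle mouse 3. Its ligand Cx3cl1, which is bound to the membrane of endothelial and epithelial cells, had means of 1.07, 2.12 and 2.39 CPM in healthy, STAM vehicle and I-BET151 liver. The log2 fold changes against healthy of 0.99 (SE 0.38) and 1.16 (SE 0.38) did not pass the test (edgeR adjusted p = 0.135 and 0.0538). Both passed with limma-voom. The second also passed without a filter, with DESeq2 and without healthy mouse 1, STAM vehicle mouse 1 or I-BET151 mouse 2.

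Ccr3, the eotaxin receptor of eosinophils, had 3, 2, 1 and 2 counts in healthy mice, 13, 17, 47 and 17 in STAM vehicle mice and 19, 10, 8 and 14 in I-BET151 mice. In CPM these were 0.0291 to 0.0638, 0.313 to 0.909 and 0.143 to 0.342, so the healthy mice overlapped with neither STAM group. The log2 fold change was 3.14 (SE 0.53, edgeR adjusted p = 0.00344) in STAM vehicle and 2.35 (SE 0.55, adjusted p = 0.0133) under I-BET151 against healthy, and both calls held in all 12 fits without 1 mouse, but with at most 3 counts per healthy mouse their size is uncertain. Its ligand Ccl24, eotaxin-2, had 1.46 ± 0.316, 2.55 ± 1.11 and 3.97 ± 2.77 CPM in the 3 groups and did not pass the test in any comparison. Under I-BET151 against healthy the log2 fold change was 1.44. That difference passed without a filter, with DESeq2, with limma-voom and without I-BET151 mouse 2 or 3. With limma-voom Ccl24 was also called higher than in STAM vehicle. Ccl11, eotaxin-1, reached 6 counts and was not tested.

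Monocyte and recruited macrophage markers (8 genes) summed to 66.5 to 104 CPM in healthy, 102 to 177 in STAM vehicle and 104 to 180 in I-BET151 mice. Of the 8, 3 were called higher in each STAM group against healthy. Of all genes, 5.72% were called higher in STAM vehicle and 9.88% under I-BET151. The 6 Kupffer cell markers summed to 151 to 216, 251 to 483 and 182 to 431 CPM, with 3 called higher in STAM vehicle and 2 under I-BET151. None of these 14 markers was called between the STAM groups (0.351% of all genes). How far such cells account for the values of Ccl2, Ccl7, Ccr2 and Cx3cr1 was not tested.

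**Figure D4:**
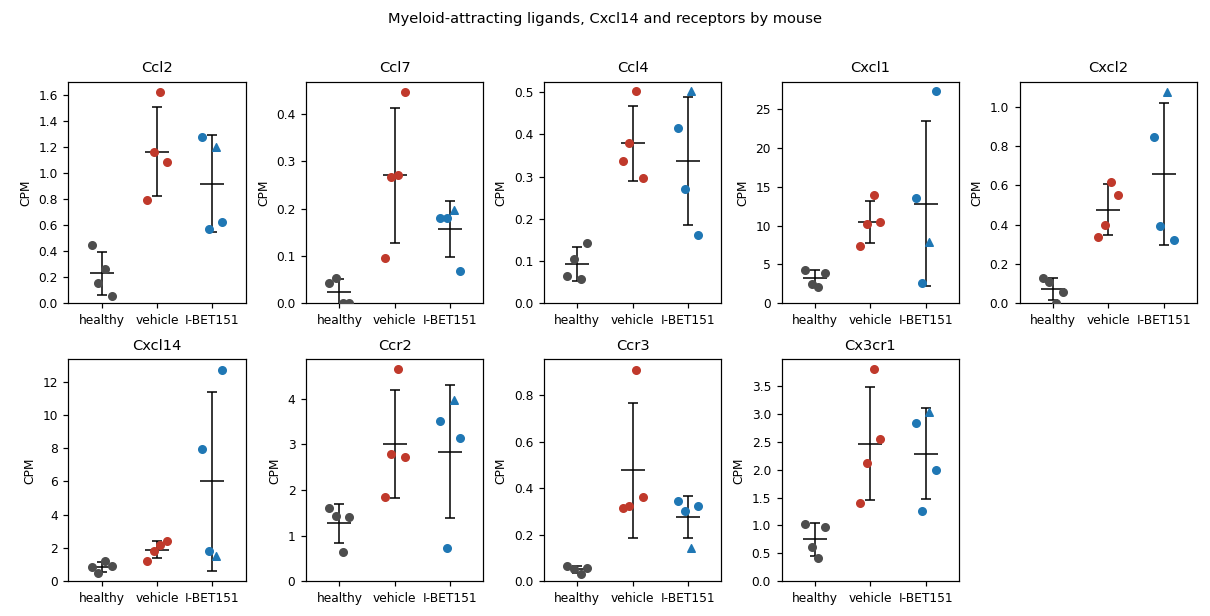
CPM of Ccl2, Ccl7, Ccl4, Cxcl1, Cxcl2, Cxcl14, Ccr2, Ccr3 and Cx3cr1 in each mouse (points), with group mean and SD (bars, n = 4) on axes that start at 0; the triangle is I-BET151 mouse 3. For Ccl2, Ccl4, Cxcl2, Ccr3 and Cx3cr1 the 4 grey healthy points lie below all red and blue points, and I-BET151 mice 1 and 4 stand above the others for Cxcl14.

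Among the inflammatory CC ligands, Ccl4 (MIP-1 beta) had 0.0638, 0.106, 0.0581 and 0.144 CPM in healthy mice, 0.337, 0.381, 0.503 and 0.297 in STAM vehicle mice, and 0.414, 0.271, 0.502 and 0.161 in I-BET151 mice. No STAM mouse overlapped with a healthy mouse. Ccl4 rose 4.06-fold in STAM vehicle (log2 fold change 2.02, SE 0.44, edgeR adjusted p = 0.0156, lost without healthy mouse 3 or STAM vehicle mouse 3) and was 3.66-fold above healthy under I-BET151 (1.87, SE 0.45, adjusted p = 0.0149, lost without healthy mouse 3). Its neighbour Ccl3 (MIP-1 alpha) had 15, 1, 0 and 6 counts in healthy mice and 19 to 39 in STAM vehicle mice. The log2 fold change of 2.11 (SE 0.72) did not pass the test (edgeR adjusted p = 0.0945). That difference passed with DESeq2, with limma-voom, with only the 2 groups compared and without healthy mouse 1 or I-BET151 mouse 3.

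Ccl6 and Ccl9, by contrast, were abundant in every mouse. Ccl6 had 13.6, 7.63, 8.78 and 7.27 CPM in healthy mice, 12.3, 13.8, 25.5 and 16.9 in STAM vehicle mice, and 30.1, 11, 7.73 and 35.1 in I-BET151 mice. Ccl9 had 29.8, 23.4, 27 and 32.4 CPM, then 29.8, 35.7, 32.8 and 37.5, and under I-BET151 40.0, 31.5, 15.3 and 54.9. The I-BET151 mice spread widely for both, from 7.73 to 35.1 and from 15.3 to 54.9 CPM, with mouse 3 lowest and mouse 4 highest. Neither gene was called in any of the 3 comparisons, the log2 fold changes in STAM vehicle being 0.88 (SE 0.42) for Ccl6 and 0.27 (SE 0.27) for Ccl9 (edgeR adjusted p = 0.237 and 0.605). Under I-BET151 against healthy, Ccl6 had 1.17 (SE 0.42, edgeR adjusted p = 0.0738) and passed without I-BET151 mouse 2 or 3, without a filter, with DESeq2 and with limma-voom. In that comparison Ccl9 was called higher with limma-voom and without I-BET151 mouse 3 (edgeR adjusted p = 0.0300).

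The neutrophil attractants Cxcl1 and Cxcl2, which bind CXCR2, were not lower under I-BET151 in the mean. Cxcl1 (chromosome 5, 90891241 to 90893115, plus strand) had 4.23, 2.52, 2.06 and 3.94 CPM in healthy mice, 7.36, 10.2, 14 and 10.5 in STAM vehicle mice, and 13.5, 2.65, 7.87 and 27.3 in I-BET151 mice. STAM vehicle did not overlap with healthy, whereas I-BET151 mouse 2 was within the healthy range and mouse 4 above all others. The difference of 1.72 (SE 0.51) in STAM vehicle narrowly missed the threshold (edgeR adjusted p = 0.0596), and it passed without I-BET151 mouse 2, 3 or 4 (1.69, adjusted p = 0.0310 without mouse 3) or with DESeq2 (1.70, adjusted p = 0.0394). Under I-BET151 Cxcl1 stood 4.01-fold above healthy (log2 fold change 2.0, SE 0.51, edgeR adjusted p = 0.0201), a call lost without healthy mouse 2, healthy mouse 3 or I-BET151 mouse 4.

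Cxcl2 (chromosome 5, 90903871 to 90905938, plus strand) had 0.128, 0.106, 0 and 0.0575 CPM in healthy mice, 0.337, 0.400, 0.619 and 0.552 in STAM vehicle mice, and 0.847, 0.392, 1.08 and 0.322 in I-BET151 mice. All STAM mice were above all healthy mice. It rose 6.08-fold in STAM vehicle (log2 fold change 2.6, SE 0.59, edgeR adjusted p = 0.0184, lost without healthy mouse 4 or STAM vehicle mouse 3) and was 8.49-fold above healthy under I-BET151 (3.09, SE 0.58, adjusted p = 0.00468, held in all 12 fits without 1 mouse); healthy mice held 0 to 6 counts. Between the STAM groups the differences were 0.29 (SE 0.49) for Cxcl1 and 0.48 (SE 0.46) for Cxcl2. The receptors Cxcr2 and Cxcr1 reached 43 and 14 counts and were not tested, and the 8 neutrophil markers summed to 0.604 to 1.02 CPM in healthy, 1.88 to 8.36 in STAM vehicle and 0.861 to 4.71 in I-BET151 mice. Cxcl5 reached 14 counts, and Cxcl3 and Cxcl15 at most 2.

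Cxcl14, a chemokine of epithelial and stromal cells, was highest under I-BET151. Healthy mice had 0.851, 0.503, 1.19 and 0.891 CPM, STAM vehicle mice 1.20, 1.79, 2.17 and 2.42, and I-BET151 mice 7.96, 1.84, 1.49 and 12.7. I-BET151 mice 1 and 4 were above every STAM vehicle mouse, and mice 2 and 3 were within the STAM vehicle range. Against healthy liver Cxcl14 was 7.00-fold higher under I-BET151 (log2 fold change 2.81, SE 0.60, edgeR adjusted p = 0.00864), which held in all 12 fits without 1 mouse. The differences of 1.14 (SE 0.59) between STAM vehicle and healthy and of 1.66 (SE 0.56) between I-BET151 and STAM vehicle did not pass the test (edgeR adjusted p = 0.278 and 0.380), the second passing without I-BET151 mouse 3 (2.0, adjusted p = 0.0703) and falling to 1.0 without I-BET151 mouse 4 (adjusted p = 0.614).

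Cxcl12 lies on chromosome 6 (117168535 to 117181367, plus strand). It had 416, 452, 347 and 424 CPM in healthy mice, 209, 329, 264 and 337 in STAM vehicle mice, and 308, 310, 584 and 304 in I-BET151 mice. Every STAM vehicle mouse was below every healthy mouse, and I-BET151 mouse 3, the library that stood apart, had the highest value of all. The log2 fold change in STAM vehicle was −0.52 (SE 0.24, edgeR adjusted p = 0.209), and without I-BET151 mouse 3 it was −0.55 with a call (adjusted p = 0.0204). Ccl27a, a skin-homing ligand with near-identical copies, was at 8.06 ± 0.590 CPM in healthy and 5.31 ± 1.26 in STAM vehicle liver. Its log2 fold change was −0.60 (SE 0.29, edgeR adjusted p = 0.235), and −0.63 without I-BET151 mouse 3 (edgeR adjusted p = 0.0235). Under I-BET151 its mean of 5.97 CPM rested on mouse 3 at 10.5 CPM, against 5.69, 3.98 and 3.68 in mice 1, 2 and 4. Without that mouse, and with limma-voom, Ccl27a was called lower under I-BET151 than in healthy liver. Its receptor Ccr10 had 0.282 ± 0.210, 0.749 ± 0.179 and 0.826 ± 0.959 CPM in the 3 groups, the last mean resting on I-BET151 mouse 3 at 2.26 CPM, against 0.450, 0.271 and 0.322 in mice 1, 2 and 4, all below every STAM vehicle mouse.

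Cxcl16, the membrane-bound ligand of CXCR6, had 10.4, 7.23, 5.61 and 6.50 CPM in healthy mice, 7.84, 10.1, 12.2 and 9.59 in STAM vehicle mice, and 10.9, 6.30, 10.9 and 8.64 in I-BET151 mice. The 3 groups overlapped, and no comparison passed the test. Zmynd15 on the opposite strand overlaps 18.3% of its exon bases. Ccl22, a CCR4 ligand of dendritic cells and macrophages, had 0.231 ± 0.0333 CPM in healthy, 0.715 ± 0.204 in STAM vehicle and 0.416 ± 0.329 in I-BET151 liver. Its log2 fold change of 1.62 (SE 0.50) in STAM vehicle did not pass the test (edgeR adjusted p = 0.0698), although the 2 groups did not overlap. That difference passed with DESeq2, with limma-voom, with only the 2 groups compared and without I-BET151 mouse 2 or 3. Ccl25, a CCR9 ligand of gut and thymus, had 7.08 ± 0.442, 9.22 ± 0.902 and 8.97 ± 3.54 CPM, and Ccl28, a mucosal ligand, had 0.306 ± 0.109, 0.344 ± 0.136 and 0.307 ± 0.237.

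The lymphoid tissue ligands, which organise lymphocytes and dendritic cells, gave no call in any comparison with edgeR. With limma-voom, Ccl19 and the scaffold copies of Ccl19 and Ccl21a were called higher in STAM vehicle. All 7 tested genes had positive log2 fold changes in STAM vehicle (median 0.58, beside 50.9% of all genes positive). All had negative ones under I-BET151 against STAM vehicle (median −0.29, beside 46.1% of all genes negative). The CCR7 ligands Ccl19 and Ccl21 exist as near-identical copies, some on unplaced scaffolds, so that the split of reads between them is uncertain. All of the 7 except Cxcl13 are such copies, so the 7 are not separate observations. The copy with most counts, Ccl21b on scaffold GL456350.1, had 3.51, 1.64, 1.10 and 2.85 CPM in healthy mice, 4.95, 2.97, 2.63 and 2.65 in STAM vehicle mice, and 2.45, 1.17, 4.75 and 2.02 in I-BET151 mice. These ranges overlapped. Ccr7 itself had 0.284 ± 0.268, 0.519 ± 0.191 and 0.342 ± 0.185 CPM. Cxcl13, the B cell attractant, had 1.25 ± 0.223, 1.51 ± 0.189 and 1.12 ± 0.830 CPM, and its receptor Cxcr5 had 0.612 ± 0.143, 0.637 ± 0.132 and 0.736 ± 0.0901.

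Of the 7 tested CC receptors all had positive log2 fold changes in STAM vehicle (median 1.24), and the calls included Ccr3. Ccr1, the receptor for CCL3 and CCL5 on myeloid cells, had 0.244 ± 0.165, 0.559 ± 0.321 and 0.432 ± 0.244 CPM in the 3 groups, and Ccr9, on gut-homing T cells, had 0.339 ± 0.119, 0.393 ± 0.129 and 0.265 ± 0.133. Ccr6, the receptor for CCL20 on T and B cells, was too low to be tested, with 4, 6, 5 and 1 counts in healthy mice, 8, 3, 1 and 2 in STAM vehicle mice, and 5, 2, 20 and 6 in I-BET151 mice. The 20 counts came from I-BET151 mouse 3, and the ranges overlapped. Its ligand Ccl20 had 3 counts in that mouse and 0 in the other 11. Cxcr4, the CXCL12 receptor, had 1.06 ± 0.650, 1.55 ± 0.153 and 1.29 ± 0.297 CPM.

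By their median, the 4 atypical receptors differed least. Their median log2 fold change in STAM vehicle was 0.043, none was called, and the largest difference in any comparison was 0.66 (SE 0.26, edgeR adjusted p = 0.0989) for Ackr3, which scavenges CXCL12, under I-BET151 against healthy. Ackr2, which removes inflammatory CC chemokines, had 6.47 ± 1.85, 5.96 ± 1.13 and 4.58 ± 1.11 CPM in healthy, STAM vehicle and I-BET151 liver. Ackr4, which removes CCL19, CCL21 and CCL25, had 1.74 ± 0.0701, 1.5 ± 0.265 and 1.55 ± 0.863. The last mean rested on I-BET151 mouse 3 at 2.83 CPM, against 1.26, 1.14 and 0.965 in mice 1, 2 and 4. Without that mouse, and with limma-voom, Ackr4 was called lower under I-BET151 than in healthy liver. With limma-voom Ackr3 was called higher in STAM vehicle. Ackr1, on venular endothelium and red cells, had 0.791 ± 0.212, 0.916 ± 0.242 and 0.903 ± 0.362. Cadm3 on the same strand overlaps 25.7% of the exon bases of Ackr1.

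Among the 23 members without a test, 13 had at most 5 counts in any mouse and 2 copies on scaffolds (of Ccl21b and Ccl27) had 0 in all 12. Xcl1, a ligand from activated T and NK cells, had 1, 2, 2 and 0 counts in healthy mice, 6, 9, 10 and 5 in STAM vehicle mice, and 2, 1, 4 and 1 in I-BET151 mice. The STAM vehicle mice were above all others. Ccr8, a receptor of regulatory T cells, had 0 counts in every healthy mouse, 2, 5, 3 and 1 in STAM vehicle mice, and 0, 0, 0 and 2 in I-BET151 mice. Ccl17, Ccl27b and Ccr4 reached 7 counts, the Ccl27 copy on scaffold JH584293.1 reached 5, Ccr1l1 reached 4, Ccl1 and Cxcl17 reached 3, and Ccl26 and the placed Ccl21b reached 1. A count of 0 allows up to 3 counts, or 0.0638 to 0.0872 CPM in the healthy libraries.

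Many members sit in clusters; whether neighbours shared a direction more often than other members was not tested. On chromosome 11 at 82035571 to 82305690, Ccl2 and Ccl7 were the 2 tested of 6 genes and both were called in STAM vehicle. In the second cluster on chromosome 11 (83525778 to 83664683), all 5 genes were tested and higher in STAM vehicle, but under I-BET151 their log2 fold changes ran from −1.37 for Ccl5 to 0.29 for Ccl6. In the 2 clusters on chromosome 5, Cxcl1 and Cxcl2 had log2 fold changes of 0.29 and 0.48 under I-BET151, and Cxcl9 and Cxcl10 of −1.46 and −1.10. Of the receptor genes clustered on chromosome 9, Ccr9, Cxcr6, Ccr1, Ccr3 and Ccr2 had negative log2 fold changes under I-BET151, between −0.85 and −0.07, and none was called.

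The 250 bases before the start of these 4 chromosome 5 genes are printed because Cxcl9 was the member called under I-BET151, Cxcl10 is its neighbour without overlap between the STAM groups, and Cxcl1 and Cxcl2 are a nearby pair of CXC ligands that were not called there; they were chosen after the values were seen. They come from RefSeq (GRCm38.p6) and are written in the direction of the gene, at chr5:92328080-92328329 (minus strand), chr5:92348890-92349139 (minus strand), chr5:90890995-90891244 (plus strand) and chr5:90903649-90903898 (plus strand). Capitals mark a match to a searched motif.
Cxcl9: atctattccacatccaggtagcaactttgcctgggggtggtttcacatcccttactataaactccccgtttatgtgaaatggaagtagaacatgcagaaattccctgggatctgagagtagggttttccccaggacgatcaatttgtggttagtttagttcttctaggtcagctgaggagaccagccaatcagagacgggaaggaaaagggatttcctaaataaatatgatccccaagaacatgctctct
Cxcl10: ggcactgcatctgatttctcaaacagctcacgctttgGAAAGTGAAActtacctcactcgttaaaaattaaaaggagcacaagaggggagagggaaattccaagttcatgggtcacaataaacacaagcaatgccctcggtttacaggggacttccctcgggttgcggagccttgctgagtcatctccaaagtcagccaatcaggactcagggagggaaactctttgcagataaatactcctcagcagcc
Cxcl1: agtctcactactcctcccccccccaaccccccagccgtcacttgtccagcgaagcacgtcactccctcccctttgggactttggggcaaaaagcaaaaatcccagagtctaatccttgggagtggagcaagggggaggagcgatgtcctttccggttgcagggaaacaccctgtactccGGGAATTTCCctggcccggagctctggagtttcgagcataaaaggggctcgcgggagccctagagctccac
Cxcl2: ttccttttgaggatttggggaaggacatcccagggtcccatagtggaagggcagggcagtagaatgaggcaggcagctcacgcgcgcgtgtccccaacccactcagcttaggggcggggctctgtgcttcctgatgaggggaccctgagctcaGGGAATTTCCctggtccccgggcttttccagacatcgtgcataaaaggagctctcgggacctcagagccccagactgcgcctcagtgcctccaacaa
The letters searched on both strands were GAAA and GAAA parted by any 2 bases (interferon-stimulated response element core), TTCNNNGAA (gamma-activated sequence) and GGGA and TTTCC parted by any 1 base (kappa B). Cxcl10 held the first as GAAAGTGAAA at bases 213 to 204 before the start. Cxcl1 and Cxcl2 held the kappa B letters as GGGAATTTCC at bases 71 to 62 and 97 to 88 before the start. Cxcl9 held none of the 3 in this window. Of 61 member symbols, 45 had a promoter in the table. The interferon-stimulated letters were in 3 of these 45 (Ccl19, Cxcl10 and Cxcl14) and in 2.98% of all 32851 promoters, the gamma-activated letters in 4 of 45 (Ccl17, Ccr1l1, Ccr6 and Cxcl14) and 7.02%, and the kappa B letters in 4 of 45 (Ccr3, Cxcl1, Cxcl2 and Cxcl3) and 0.356%. A match describes letters only and was not related to binding. Only these letters were searched, so looser forms of the 3 motifs stay unmarked in the printed sequences. The lack of a match therefore does not show the lack of a site.

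Other genes of the chemokine pathway, from a list of 41 (ligands and receptors outside the symbol rule, and signal transduction below the receptors), shared the direction in STAM vehicle. Of 40 tested, 36 had a positive log2 fold change (median 0.60; 50.9% of all genes), and 8 rose and none fell (edgeR, adjusted p of at most 0.05), beside 5.72% and 1.38% of all genes. They included Gpr35, a receptor proposed for CXCL17, the G protein regulator Rgs2, the PI3K gamma subunit Pik3r5, the Rac activators Dock2, Vav1 and Prex1, and the myeloid Src family kinase Fgr. Gpr35 rose from 0.675 ± 0.260 to 2.17 ± 0.537 CPM (log2 fold change 1.67), and Dock2 from 2.68 ± 0.835 to 6.57 ± 1.88 CPM (1.29). Between I-BET151 and STAM vehicle none of the 40 was called; Xcr1, the XCL1 receptor, had −0.89 (SE 0.35, edgeR adjusted p = 0.484). Against healthy liver 13 were higher and 2 lower under I-BET151, beside 9.88% and 5.25% of all genes, the 2 being Rarres2 (chemerin; 170 ± 15.3 against 116 ± 30.5 CPM) and Dpp4 (131 ± 25.2 against 81.8 ± 12.6 CPM), a protease that trims chemokines. Cxcl11, the remaining CXCR3 ligand, is annotated as a polymorphic pseudogene in GENCODE M21 and so is no member. Its means were 4.63, 3.75 and 4.34 CPM in the 3 groups, and it was not called. The last mean rested on I-BET151 mouse 3 at 11.8 CPM. That mouse held 657 counts, against 106, 76 and 60 in mice 1, 2 and 4. In CPM these 3 mice lay below every healthy mouse (lowest 3.08) and every STAM vehicle mouse (lowest 3.39).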

How the data were processed

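Total RNA of 12 livers was sequenced after a stranded TruSeq preparation. Per the labels and the study's methods, the authors aligned reads to mm10 with STAR 2.5.1b and deposited unnormalised HTSeq counts per gene and mouse; the names of the deposited tables point to featureCounts instead, and the strand setting and annotation release are not given in the sources used here. Total counts were 34711229 to 53365596, and 3 counts corresponded to 0.0538 to 0.0904 CPM, counting error only. The study left out 1 I-BET151 mouse, not named in its text, for low gene counts. All 12 were kept here. Groups came from the labels, and each library is 1 mouse.

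Counts were analysed with edgeR 4.0.16 (TMM, filterByExpr with a minimum count of 10, quasi-likelihood fit of all 12 mice, Benjamini-Hochberg adjustment over 16823 genes). The thresholds were 0.05 against healthy and 0.1 for I-BET151 against STAM vehicle. SE is the log2 fold change divided by the root of F. Alternatives were RLE scaling, other filters, DESeq2 1.42.0, limma 3.58.1 (voom with sample weights), only the 2 groups compared, replicate number or lane as a term, exchanged thresholds and leaving out each mouse. On simulated data edgeR and limma kept their false calls near the set level, whereas DESeq2 made more. Those data were drawn with the spreads that edgeR estimated, without a library that stood apart or an effect of lane. They therefore cannot tell which tool is nearer the truth for these mice. The larger counts of DESeq2 are to be read with both points. Within-lane values and promoters were chosen after the data were seen. Members, roles, markers and pathway lists were chosen with earlier results of these data known. Values of every mouse were given for members called in any comparison and for the 5 tested members with the highest CPM per kilobase. They were also given for Ccl2, Ccl5, Cxcl9, Cxcl10, Cxcl16, Ccr2, Ccr6, Cxcr3, Cxcr6 and Cx3cr1, whether called or not. Other tested members were given by means or log2 fold changes, and untested members by their highest count. Other pathway genes were given where called in STAM vehicle against healthy or called lower under I-BET151 against healthy. Counts per mouse of Ccl3, Ccl7, Ccr3, Ccr8, Xcl1 and Ccl20, and Xcr1 and Cxcl11, were added after their values were seen. So were the values of Ccl27a per I-BET151 mouse. Results of some genes are not reported here, though they stay in the fits and in the counts over members and lists. Coordinates and exon lengths are from GENCODE M21 (GRCm38), promoters from RefSeq.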

Additional observations from a re-analysis of the deposited data

Results flagged for a closer look

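Outlying mice were looked for with Dixon's test in 60 groups of 4 mice, and 4 groups held one, where chance gives about 1 in 20. Ccr3 was at 0.909 CPM in STAM vehicle mouse 3 and at 0.313 to 0.361 in the other 3 mice of its group. Ccl21b on scaffold GL456350.1 was at 4.95 CPM in STAM vehicle mouse 1, against 2.63 to 2.97. Ccl7 was at 0.0689 CPM in I-BET151 mouse 4, a value of 3 counts, against 0.180 to 0.197. Cxcl12 was at 584 CPM in I-BET151 mouse 3, the library with the TMM factor of 1.61, against 304 to 310.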

How the results depend on the processing

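In the comparison of STAM vehicle with healthy, 10 members and 1195 of all genes were called. With at least 10 counts required in every mouse, fewer genes were tested, and 5 of 25 members were called, beside 903 of 14219 genes. The members numbered 27 with limma-voom, 19 with only the 2 groups compared and 0 with lane as a covariate. All genes called numbered 2052 at a threshold of 0.1, 1891 with DESeq2, 5672 with limma-voom, 3879 with only the 2 groups and 37 with lane. For I-BET151 against STAM vehicle (1 member, 59 genes), the members numbered 0 at a threshold of 0.05, 2 without a filter, 3 with DESeq2, 5 with limma-voom, 0 with only the 2 groups and 0 with lane. All genes then numbered 26, 101, 268, 1205, 8 and 0. For I-BET151 against healthy (9 members, 2546 genes), the members numbered 15 at a threshold of 0.1, 17 with limma-voom and 0 with lane. All genes numbered 4162 at 0.1, 4880 with limma-voom, 1262 with only the 2 groups and 85 with lane. With at least 10 counts in every mouse, 4 of 25 members were called, beside 2180 of 14219 genes. The cause of these differences was not tested. RLE scaling kept the side of the threshold for each of the 57 log2 fold changes followed.

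Replicate numbers did not pair the mice: deviations of same-numbered mice had a mean correlation of −0.0927 (12 pairs). With the replicate block, 742, 10 and 1573 of all genes and 8, 0 and 7 members were called in the 3 comparisons, and the log2 fold changes under I-BET151 against STAM vehicle of Ccl9 (−0.035) and Cxcl1 (−0.058) turned sign.

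Leaving out 1 mouse (edgeR, and DESeq2 for the I-BET151 mice) gave 4 to 20 members and 546 to 4369 genes for STAM vehicle against healthy, 0 to 4 and 13 to 1287 for I-BET151 against STAM vehicle, and 4 to 17 and 1292 to 4474 for I-BET151 against healthy, whose member median ran from 0.24 to 0.89 with edgeR and reached 0.23 with DESeq2 without I-BET151 mouse 3. The adjusted p for the log2 fold change of Cxcl9, I-BET151 against STAM vehicle, ran from 4.05e-06 (DESeq2) to 0.194 (edgeR with lane) over its alternatives. Signs turned between the STAM groups for Ccr2 (−0.27 to 0.23), Ccl4 (−0.39 to 0.077), Ccl6 (−0.080 to 0.58), Ccl9 (−0.24 to 0.32), Cx3cr1 (−0.30 to 0.18), Cxcl1 (−0.41 to 0.62) and Cxcl16 (−0.23 to 0.024), and for I-BET151 against healthy for Cxcr3 (−0.62 to 0.082) and Ccl21b on scaffold GL456350.1 (−0.28 to 0.49). With lane, signs turned between the STAM groups for Ccr2 (0.14), Ccl9 (−0.077), Cx3cr1 (0.023) and Cxcl16 (0.062), in STAM vehicle against healthy for Cxcr3 (−0.029), Cxcr6 (−0.31), Cxcl16 (−0.17) and Ccl21b (−0.70), and for I-BET151 against healthy for Ccl21b (−0.94) and Cxcl16 (−0.11). With limma-voom they turned for I-BET151 against healthy for Ccl5 (0.067), Cxcl10 (−0.052) and Ccl21b (−0.048). Members under 10 counts in healthy mice, such as Ccl7, Ccr3 and Cxcl2, are limited by depth in the size of their change.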
